A study of Mus musculus with 20 samples.

Results

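The Ink4-Arf locus holds Cdkn2a (gene 12578) and Cdkn2b (gene 12579). It was followed through every peak that overlapped a window of 100 kb on chromosome 4 of the mm9 build, from position 88890001 upwards, which was set to hold both genes. The window had 139 of the 4480164 peaks of the 10 lists. The cells were embryonic fibroblasts of C57BL/6 mice, taken at stage E13.5 and used at passage 4, and protein was located on DNA by immunoprecipitation and sequencing. The labels list 5 antibodies for pRb. The groups were wild type (WT) and a mutant genotype labelled SS, which the labels do not spell out. The retinoblastoma protein pRb and the histone mark H3K27me3 were assayed in asynchronously proliferating and in arrested cells of each genotype. Ezh2 was assayed in serum-deprived cells of each genotype. All cells were grown in 10% serum, and the labels name 0.1% serum for 72 h as the way to arrest. For the arrested pRb libraries another label field names confluence, whereas those of H3K27me3 and Ezh2 name serum deprivation. There was 1 library per group, so differences have no replicate error and were not tested. Comparisons of genotype and of growth share libraries. Gene expression was not measured, so the labelled cell type was not checked against its markers.

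Cdkn2a gives rise to a pair of unrelated proteins from separate first exons. One is p16INK4a, which like the Cdkn2b product p15INK4b binds the cyclin D kinases and so keeps pRb in its active, growth-restraining form. The other is p19ARF, which restrains Mdm2 and thereby stabilises p53. H3K27me3, a mark of silent genes, is deposited by Polycomb repressive complex 2 through its methyltransferase Ezh2. In fibroblasts the locus is a well known Polycomb target that is kept low in young dividing cells and rises with passage and senescence. pRb itself reaches promoters mainly through E2F factors.

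The RefSeq table orders the genes of chromosome 4, by rising coordinate, as Tgif2-ps1, Cdkn2a, Gm12610, Cdkn2b and Gm12608, with Cdkn2a and Cdkn2b both read towards lower coordinates. It belongs to the GRCm38.p6 build, so no peak was placed on an exon or a promoter. The sequences below are the 250 bases before each annotated start of the genes (RefSeq, GRCm38.p6, minus strand, 5′ to 3′). They are shown because CpG-rich promoters are the usual sites of Polycomb in mammals and E2F motifs those of pRb. Capitals mark an E2F-type motif, searched as TTTCCCGC, TTTCGCGC, TTTGCCGC and TTTGGCGC on both strands. The higher Cdkn2a start (chr4:89294620-89294869 in that build) is that of the Arf transcript, the lower one (chr4:89282193-89282442) that of Ink4a, and the Cdkn2b promoter lies at chr4:89311033-89311282.
Cdkn2b: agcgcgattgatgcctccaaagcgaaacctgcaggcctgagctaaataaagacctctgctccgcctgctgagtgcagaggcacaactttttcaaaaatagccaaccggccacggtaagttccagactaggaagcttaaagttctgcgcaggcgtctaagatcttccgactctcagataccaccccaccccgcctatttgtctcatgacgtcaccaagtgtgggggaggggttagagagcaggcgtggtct
Cdkn2a, Arf start: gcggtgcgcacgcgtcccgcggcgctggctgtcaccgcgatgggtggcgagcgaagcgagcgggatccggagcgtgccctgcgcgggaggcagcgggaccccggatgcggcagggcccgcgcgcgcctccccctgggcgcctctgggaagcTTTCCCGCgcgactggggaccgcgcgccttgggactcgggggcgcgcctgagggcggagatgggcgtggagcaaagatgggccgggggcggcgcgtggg
Cdkn2a, Ink4a start: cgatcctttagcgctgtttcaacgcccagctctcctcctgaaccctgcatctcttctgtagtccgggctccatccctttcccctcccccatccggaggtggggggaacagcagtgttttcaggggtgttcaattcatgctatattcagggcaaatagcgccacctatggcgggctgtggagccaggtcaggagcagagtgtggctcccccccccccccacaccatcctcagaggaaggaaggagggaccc
The Arf promoter had 40 CpG dinucleotides and a GC content of 78.4%, more CpG than 98.7% of the 32841 promoters of the table. The Cdkn2b promoter had 12 CpG and the Ink4a promoter 7, against a median of 6. Of the 3 sequences only that of Arf held a motif match, TTTCCCGC, at 99 to 92 bases before the start. Such a match was found in 1.86% of all promoters of this length, and it is a description of the letters, not of binding.

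In proliferating cells H3K27me3 formed a long block inside the window at nearly the same place in both genotypes. In WT cells 1 peak of 32820 bp spanned chr4:88904625-88937444. It had the highest score of the window in its list, with an authors' fold enrichment of 4.72 and a -log10 q-value of 9.32. In SS cells the block began 41 bp away, with a peak of 27240 bp at chr4:88904666-88931905, an authors' fold enrichment of 5.61 and a -log10 q-value of 15.3. After a gap of 652 bp a further SS peak ended 30 bp from the WT edge, at 88937474, and another ran from 88938096 to 88940330. Among the autosomal peaks over 10 kb, the WT peak ranked 271 of 3356 by length and the SS peak 529 of 3987. WT peaks covered 38.4% of the window and SS peaks 39.5%, against 9.79% and 11.8% of the autosomes. Of the autosomal bins of 100 kb, 92.6% in WT and 91.1% in SS were covered less.

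**Figure D1:**
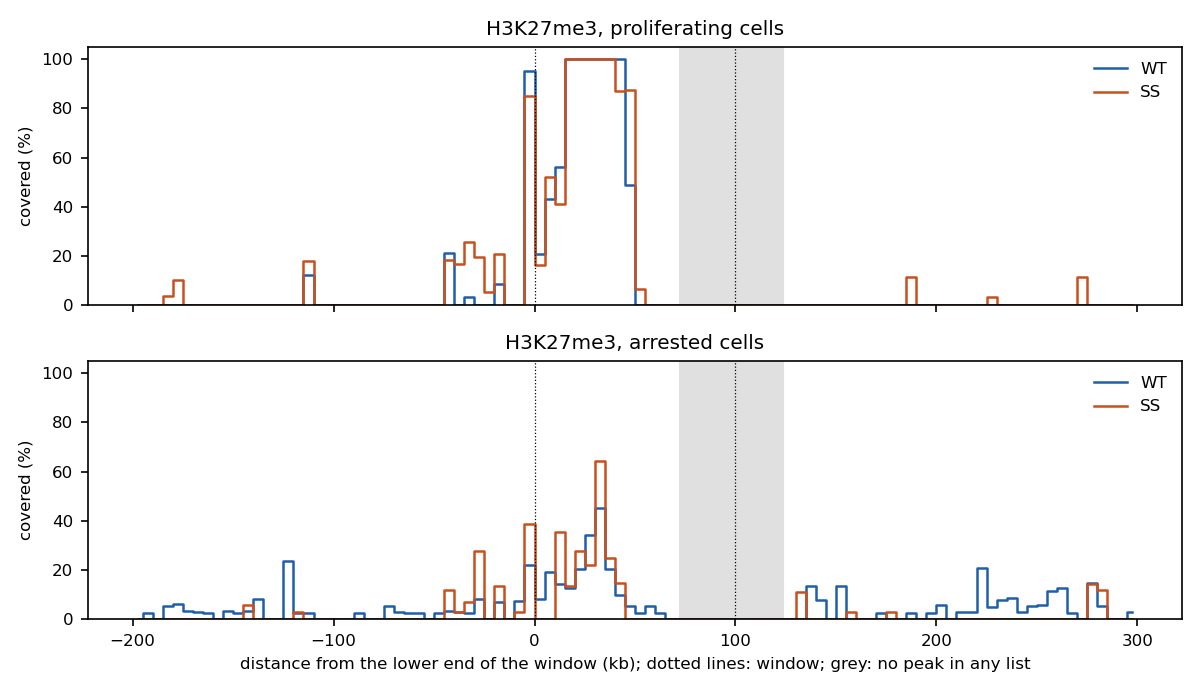
Share of each 5 kb step covered by H3K27me3 peaks (y axis, percent) over the window and 200 kb on each side (x axis, distance from the window's lower end in kb), in proliferating (top) and arrested cells (bottom), WT in blue and SS in orange. The proliferating lists reach 100% over 5 steps in both genotypes, while the arrested lists peak at 45.2% in WT and 64.2% in SS; grey marks the stretch without any peak.

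Step by step, the proliferating block was fully covered in both genotypes from 88905001 to 88930000, 5 steps of 5 kb. The next step was covered to 100% in WT and 87.0% in SS, and the one from 88935001 to 48.9% and 87.6%. That step was the only one of 20 that was higher by at least 20 percentage points in SS (5.60% of autosomal steps passed this), and 0 of 20 were lower (1.58% of autosomal steps). Coverage of at least 50% was reached in 7 of 20 steps in WT (8.26% of autosomal steps) and in 8 in SS (9.91%). WT had a peak in 10 of 20 steps (25.3% of autosomal steps) and SS in 11 (31.3%). Of the 5 WT peaks in the window 2 overlapped an SS peak of the window, the long block and the peak at 88898029-88901970. That is 40.0% (95% Wilson interval 11.8 to 76.9), against 68.9% of autosomal WT peaks. The WT peak at 88885230-88891044 crosses the window's lower edge, and SS peaks outside the window were not counted for it. In the step just below the window WT covered 95.4% and SS 85.0%. This peak thus also met an SS peak, and 40.0% is too low. The difference between the genotypes over the whole window was 1.08 percentage points. It turned to -5.70 when SS was scaled to the WT coverage of the autosomes, so it had no stable direction.

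In proliferating cells the lower side of the block carried the mark in patches and the higher side had little or none. The step just below the window, from position 88885001, was covered to 95.4% in WT and 85.0% in SS, and the window's first 3 steps to between 16.2% and 56.0%. Over the 200 kb on the lower side the covered share was 3.51% in WT and 5.58% in SS. Between the block's WT edge and 88962479, a stretch of 25.0 kb, WT had 0 peaks and SS 2, which covered 9.05%. On the 200 kb of the higher side proliferating WT had 0 peaks and SS 3, which covered 0.649%. Part of that side lies in a stretch without a peak in any list, described below. The arrested lists did have peaks there, 37 in WT and 5 in SS, which covered 3.99% and 1.07%. On the 200 kb of the lower side the arrested lists covered 3.53% in WT and 2.82% in SS.

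In arrested cells shorter peaks were called over the same block. The arrested WT list had 27 peaks in the window, with a median length of 133 bp and a longest peak of 1810 bp at 88918432-88920241. The arrested SS list had 10 peaks, with a median of 995 bp and a longest of 2570 bp at 88918903-88921472. Over all peaks of these lists the median was 138 bp in WT and 439 bp in SS. The window's median was thus near that of the list in WT and above it in SS. The longest WT and SS peaks of the window overlapped each other. The highest score fell elsewhere: in WT on a peak at 88901430-88902002 with an authors' fold enrichment of 14.1, and in SS on a peak at 88924036-88925014 with 4.13. In both lists the most covered step was that from 88920001 to 88925000, with 45.2% in WT and 64.2% in SS. It was the only SS step covered to at least 50% (3.56% of autosomal steps), and 0 of 20 WT steps were (0.877%). WT peaks fell in 13 of 20 steps (77.6% of autosomal steps) and SS peaks in 7 (33.8%), the latter all between 88900001 and 88935000.

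**Figure D2:**
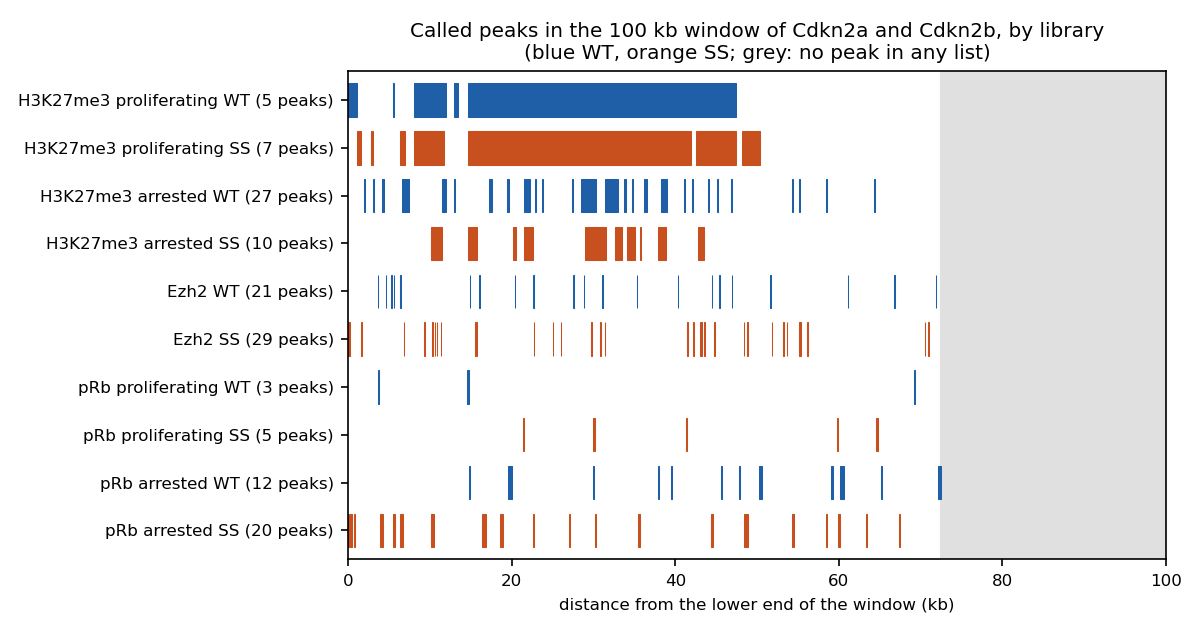
Every called peak in the window (x axis, distance from the window's lower end in kb) in each of the 10 libraries (rows, with the number of peaks; WT in blue, SS in orange). The long proliferating H3K27me3 block is 1 peak in WT and 2 peaks with nearly the same outer edges in SS, followed in SS by a separate short peak, the arrested H3K27me3 peaks are shorter and lie mostly within the block, and no list has a peak in the grey stretch.

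Arrest went with less called H3K27me3 at the locus in both genotypes. In WT the covered share fell from 38.4% to 10.0%, to 0.260 times the proliferating share, whereas over the autosomes the ratio was 0.786. In SS it fell from 39.5% to 10.1%, to 0.256 times, against 0.562 over the autosomes. The difference was -28.4 percentage points in WT, and 5.28% of autosomal bins had a lower one. In SS it was -29.4, with 2.44% of bins below it. In WT 9 of 20 steps were lower by at least 20 points (11.4% of autosomal steps) and 0 higher (2.74%). In SS 8 of 20 were lower (12.5%) and 0 higher (0.823%). A step can fall by 20 points only if at least 20% of it was covered in proliferating cells. Coverage of at least 50% was found there in 7 of 20 WT steps (8.26% of autosomal steps) and 8 SS steps (9.91%). The autosomal steps and bins were not matched to the window for starting coverage. The steepest WT step was that from 88930001 to 88935000, from 100% to 9.82%, and the steepest SS step the next one, from 87.6% to a value listed at 0. Most of these steps lie in the same long peaks, so neighbouring steps are not separate observations. The arrested WT list was made of short peaks throughout, with a median of 138 bp against 723 bp in proliferating WT, and the part of this difference in peak length was not tested.

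In arrested cells the covered shares of the genotypes were close. The window was covered to 10.0% in WT and 10.1% in SS, a difference of 0.120 percentage points, while over the autosomes SS covered 0.863 times the WT share. Merging peaks within 1 kb gave -5.78, so the direction was not stable. By the 20 point rule 1 of 20 steps was higher in SS (5.71% of autosomal steps), that from 88900001 to 88905000 with 14.1% in WT and 35.3% in SS, and 0 were lower (3.30%). Of the 27 WT peaks 5 overlapped an SS peak, 18.5% (8.18 to 36.7), against 15.9% over the autosomes. Most arrested peaks lay on proliferating ones, 19 of 27 in WT, against 20.5% of autosomal peaks, and 10 of 10 in SS, against 51.4%. Those proliferating lists covered 53.0% and 54.5% of the part of the window that held any peaks, against 9.79% and 11.8% of the autosomes.

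Set beside other long proliferating H3K27me3 peaks, the block at this locus kept little called coverage in arrested SS cells. Arrested SS peaks covered 26.6% of the WT block, whereas their median over the 3356 autosomal WT peaks above 10 kb was 65.5%, with quartiles of 52.6% and 76.5%. Only 2.41% of those peaks were covered less. Arrested WT peaks covered 22.6% of the block against a median of 33.2%, and 18.4% of the peaks were covered less. The SS minus WT difference was 4.06 points at the block and 30.8 points at the median, with 5.75% of the peaks below the block. With the SS block and the 3987 SS peaks as the base, arrested SS covered 29.2% against a median of 61.6%, and arrested WT 25.2% against 30.9%. These are ranks within 4 libraries and were not tested.

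Autosomal bins with like H3K27me3 coverage over the 4 libraries were sought. Likeness was the Euclidean distance between the 4 covered shares, in percentage points, over 24014 autosomal bins of 100 kb, and 7 bins lay within 5 points. How many such neighbours other bins have was not counted, so this is no measure of rarity. The nearest were chr18:54200001-54300000 at a distance of 2.32, chr14:66900001-67000000 at 2.33 and chr16:38800001-38900000 at 2.94. The first was covered to 38.1% and 40.0% in proliferating WT and SS cells and to 11.5% and 11.8% in arrested WT and SS cells. Genes in these bins were not analysed here.

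Ezh2 peaks were scattered over the window and short, as they were in the whole lists. The median length over each list was 50 bp in WT and 51 bp in SS. WT cells had 21 peaks of 50 to 123 bp, which covered 1.34% of the window, and SS cells 29 peaks of 51 to 250 bp, which covered 2.75%. The autosomal mean was 33.7 peaks per 100 kb in WT and 47.4 in SS. Both covered shares were below those of the autosomes, 3.29% and 5.06%, and 1.68% and 2.74% of autosomal bins were covered less. These ranks include the part of the window without a peak in any list. Outside it Ezh2 covered 1.85% in WT and 3.79% in SS, and the ranks were not recomputed. The longest WT peak was at 88921046-88921168 and the highest scoring at 88896307-88896406, with an authors' fold enrichment of 4.48. In SS the longest was at 88932993-88933242 and the highest scoring at 88896818-88896868, with 5.33. By score these leading peaks were at 8.48% of the WT list and 6.39% of the SS list from the top. The most covered WT step was that from 88895001 to 88900000, with 4.00%. None of the 21 WT peaks overlapped an SS peak, which allows a share of up to 14.3%, whereas 11.5% of autosomal WT peaks did.

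**Figure D3:**
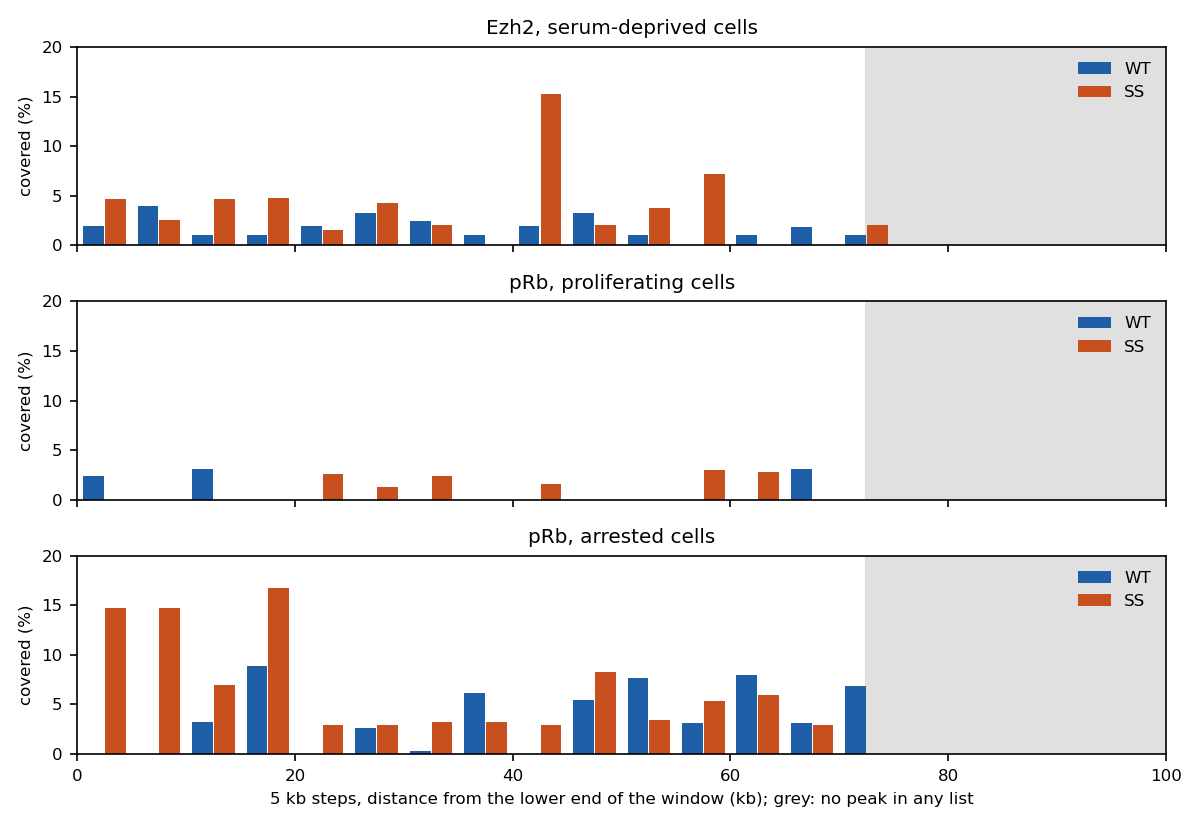
Share of each 5 kb step of the window covered by peaks of Ezh2 (top), pRb in proliferating cells (middle) and pRb in arrested cells (bottom), WT in blue and SS in orange; x axis, distance from the window's lower end in kb, y axis, percent. No step exceeds 16.8% in any of the 6 lists, Ezh2 in SS stands out at 15.3% in 1 step, and arrested pRb in SS covers 14.7% of each of the first 2 steps, where WT has no peak.

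WT Ezh2 peaks fell in 14 of 20 steps (82.7% of autosomal steps) and SS peaks in 12 (91.6%). The step from 88930001 to 88935000 was the only one higher by at least 10 points in SS (5.52% of autosomal steps), with 2.00% in WT and 15.3% in SS, and 0 were lower (1.01%). It held 5 of the 29 SS peaks and lies at the higher end of the H3K27me3 block. Over the block Ezh2 covered 2.43% in WT and 4.26% in SS, against 2.05% and 4.08% of the 14.6 kb below it and 0.971% and 3.0% of the 25.0 kb above it. The share on the block was thus close to that below it. Of the WT Ezh2 peaks 13 of 21 overlapped a proliferating WT H3K27me3 peak (11.3% of autosomal peaks), and of the SS peaks 20 of 29 a proliferating SS one (13.8%). Ezh2 was assayed in serum-deprived cells, so these counts set different growth conditions side by side. On the arrested H3K27me3 peaks of the same genotype the counts were 3 of 21 in WT (11.25% of autosomal peaks) and 9 of 29 in SS (8.37%). The proliferating H3K27me3 lists covered 53.0% and 54.5% of the part of the window that held any peaks, and the arrested lists 13.8% and 14.0%. Over other long WT blocks the median Ezh2 coverage was 3.17% in WT and 4.96% in SS. The 2.05-fold higher window coverage in SS stood beside a ratio of 1.54 over the autosomes.

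pRb peaks were fewer in proliferating than in arrested cells. In proliferating WT cells 3 peaks covered 0.431% of the window, at 88893662-88893780, 88904564-88904719 and 88959141-88959296, all with scores of 21.3 to 21.8 near the lowest of their list, 20.0. In proliferating SS cells 5 peaks covered 0.680%, with scores of 22.2 to 28.4. The most covered steps were that from 88900001 in WT, with 3.12%, and that from 88945001 in SS, with 2.96%. WT peaks lay in 3 of 20 steps (15.1% of autosomal steps) and SS peaks in 6 (20.0%). None of the 3 WT peaks overlapped an SS peak, a number that allows any share up to 100%, against 1.70% over the autosomes. No step of 20 differed by at least 10 points between genotypes (0.0423% of autosomal steps higher in SS, 0.0131% lower).

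In arrested cells WT had 12 pRb peaks that covered 2.77% of the window and SS 20 that covered 4.72%, against 3.16% and 5.61% of the autosomes. The ratio of SS to WT was 1.71 at the window and 1.78 over the autosomes. The highest scoring WT peak, at 88919869-88920014, had a score of 405 and ranked 2241 of 424588 in its list. It lay inside the H3K27me3 block, in peaks of all 4 H3K27me3 lists, and a proliferating SS pRb peak at 88919937-88920118 overlapped it. An arrested SS peak lay close by without overlap, at 88920123-88920283, with a score of 106. The highest scoring arrested SS peak was elsewhere, at 88944316-88944485, with a score of 286 and rank 48113 of 650383. None of the 12 WT peaks overlapped an SS peak, which allows a share of up to 25.0%, against 11.1% over the autosomes.

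Arrested SS cells had 7 pRb peaks in the 14.6 kb below the block, which covered 12.4%, and arrested WT cells 0. Over the autosomes the mean was 25.7 peaks per 100 kb in SS and 16.7 in WT. This segment was singled out after its values were seen, and the difference was not tested. The first 2 steps of the window were covered to 14.7% each in SS and had no WT peak, and they were the only steps of 20 higher by at least 10 points (10.9% of autosomal steps). None was lower by that much (1.97%). Above the block each genotype had 6 peaks, which covered 6.28% of the 25.0 kb there in WT and 5.18% in SS. The most covered step was the same in both, that from 88905001 to 88910000, with 8.86% in WT and 16.8% in SS. WT peaks lay in 11 of 20 steps (59.1% of autosomal steps) and SS peaks in 14 (75.7%). Without the 5 steps that held no peak in any list, these were 11 of 15 and 14 of 15, above the autosomal shares. Arrest went with 6.42 times the proliferating coverage in WT and 6.94 times in SS, beside 6.72 and 8.81 times over the autosomes. In WT 0 of 20 steps were higher in arrest by 10 points (5.19%) or lower (0.00687%), and in SS 3 were higher (16.2%) and 0 lower (0.0137%).

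Few pRb peaks of the window overlapped Ezh2 peaks, a share near that of the autosomes. In arrested WT cells 1 of 12 pRb peaks overlapped a WT Ezh2 peak (10.5% of autosomal peaks), and in SS 3 of 20 overlapped an SS Ezh2 peak (16.7%). Within H3K27me3 the counts were 6 of 12 in WT on proliferating WT peaks (12.4%) and 10 of 20 in SS on proliferating SS peaks (14.5%), while those lists covered 53.0% and 54.5% of the part of the window that held any peaks. On the arrested H3K27me3 peaks of the same genotype the counts were 2 of 12 in WT (13.7%) and 3 of 20 in SS (9.27%). The arrested lists covered 13.8% and 14.0% of that part. Besides the place at 88919869-88920118, pRb peaks of different lists overlapped at 88949789-88950127, with a proliferating SS and an arrested SS peak.

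The higher end of the window held no peak in any of the 10 lists. The empty stretch ran over chr4:88962480-89013774, 51295 bp, of which 27521 bp lie in the window, and it took in 5 of its 20 steps. It began after a pRb peak of arrested WT cells and ended at a pRb peak of proliferating SS cells. On the autosomes 0.812% of 5 kb steps had no peak in any list, and 71 of 2671237 stretches between peaks were at least as long. Peak lists do not tell a stretch without enrichment from one where no reads could be placed, such as a gap of the assembly, and this was not tested. The 0 coverage there may thus be no measurement, which touches every share given over the whole window. Over the 72.5 kb outside the stretch, WT Ezh2 had a peak in 14 of 15 steps and SS Ezh2 in 12, beside 82.7% and 91.6% of autosomal steps. Arrested pRb had peaks in 11 of these 15 steps in WT and 14 in SS, beside 59.1% and 75.7%. For proliferating pRb they were 3 and 6, beside 15.1% and 20.0%. Arrested H3K27me3 had peaks in 13 in WT and 7 in SS, beside 77.6% and 33.8%. There arrested pRb covered 3.82% in WT and 6.51% in SS, now 1.21 and 1.16 times the autosomal share in place of 0.876 and 0.841. Ezh2 stayed below the autosomes, at 0.563 times in WT and 0.749 times in SS. H3K27me3 covered 53.0% and 54.5% in proliferating and 13.8% and 14.0% in arrested WT and SS cells.

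**Figure D4:**
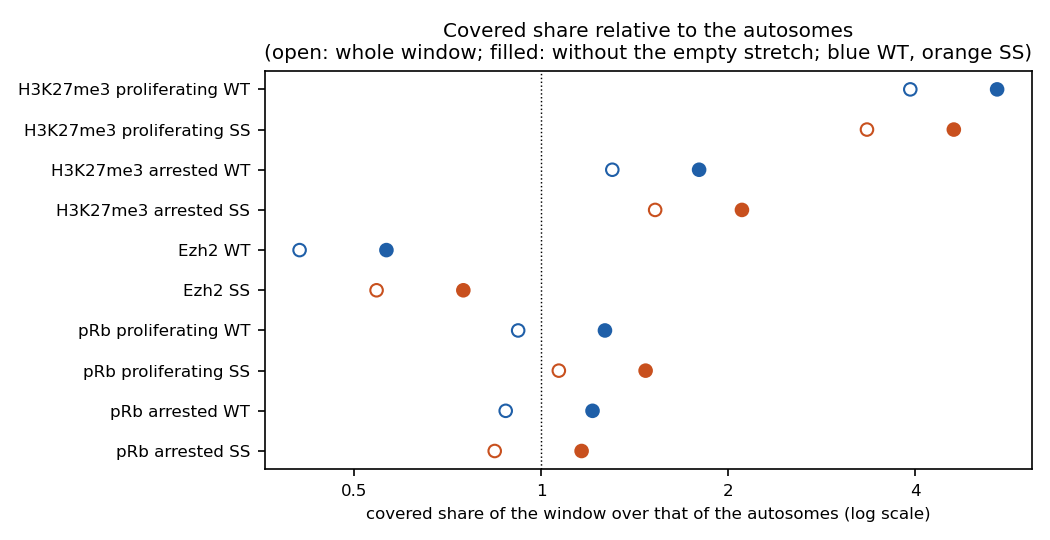
Covered share of the window divided by the covered share of the autosomes (x axis, log scale) for each library (rows; WT in blue, SS in orange), for the whole window (open circles) and without the stretch that is empty in every list (filled circles). Proliferating H3K27me3 lies highest, at 3.93 and 3.35 times for the whole window, Ezh2 lies below 1 either way, and arrested pRb moves from below to above 1.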

How the data were processed

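Peak lists of 10 immunoprecipitated libraries were used; the 10 input libraries were not analysed here. The submitters' processing notes name MACS2, Bowtie2, bedtools and HOMER with build mm9; their versions, settings and peak control were not given in the sources used here. Each list belongs to 1 library. In the pRb lists the authors deposited only a score, of unstated unit and at least 20.0. For H3K27me3 and Ezh2 the deposited values are a score, a fold enrichment (ratio) and p and q on the -log10 scale. These are the authors' values and only describe or rank peaks within a list. No reads were counted, so depth is unknown; a deeper library yields more peaks, which moves covered shares.

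Covered share was the summed peak length in the window, a 5 kb step or a bin, divided by its length. Background values cover the 480400 steps of the 24020 autosomal bins of 100 kb with a peak in any list. A step counted as different at 20 percentage points for H3K27me3 and 10 for pRb and Ezh2. Overlap meant at least 1 bp. Peaks of the window were matched only to peaks that reach into it, whereas the autosomal shares used all autosomal peaks. Intervals are Wilson 95% and, like the upper limits for a count of 0 (3 counts), cover counting error only. The named peaks are the longest and the highest scoring of each library in the window, the named step its most covered one, and the named bins the 3 nearest in H3K27me3; other peaks, steps and the block were singled out after their values were seen. The members and rules were chosen with earlier results of these data known. The functions that merge peaks, sum covered bases and find overlaps were tested on simulated lists. The Wilson intervals were not part of that test. Python 3.11.15, numpy 2.4.6, pandas 2.3.3 and matplotlib 3.10.9 were used.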

Additional observations from a re-analysis of the deposited data

How the results depend on the processing

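All results rest on 1 library per group, with no spread between replicates and unknown depth. No paired analysis was possible, since a group had no second library to pair. A value counted as moved when it left the binomial interval of the main value over the 100 kb of the window. The fall of H3K27me3 coverage with arrest kept its direction under all 7 alternatives, between -22.3 and -39.2 points in WT and between -21.5 and -40.6 in SS. The values of -39.2 and -40.6 came without the stretch empty in every list, chosen after the data were seen, which shortens the window. The other 7 differences lay within their intervals under every alternative. Those intervals treat each kb as a separate observation and all include 0, so this says little about stability. Of the 9 differences 5 lacked a fixed sign. Scaling to equal autosomal coverage gave -5.70 for proliferating H3K27me3 and -0.111 for arrested pRb between genotypes, and -0.0195 in WT and -0.144 in SS for pRb between growth conditions. Equal autosomal covered length gave -2.63, -0.545, -0.129 and -0.198 for the same 4. For arrested H3K27me3 merging within 1 kb gave -5.78, and a common cutoff at the higher median score, added after the data were seen, gave -5.75 and left 0 SS coverage; it gave -2.18 for proliferating H3K27me3. A common lowest score changed none of the 9. The lowest scores of compared lists nearly coincided (1.04 in WT and 1.09 in SS for proliferating H3K27me3), so this setting could change little. With peaks of at least 500 bp no pRb or Ezh2 coverage was left in the window. A reciprocal overlap of 50% took the arrested H3K27me3 share from 18.5% to 11.1%. In proliferating WT no pRb peak of the window reached the median score of its list, so that setting gave no value. With steps of 10 kb no step passed the rule as higher in SS for Ezh2 or for H3K27me3 in either growth condition.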

Other observations

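Below the window, proliferating SS cells had H3K27me3 peaks over a stretch where WT had few. The 5 steps from 88850001 to 88875000 were covered to 16.6%, 25.5%, 19.7%, 5.14% and 20.7% in SS and were at 0, 3.10%, 0, 0 and 8.52% in WT. In arrested SS cells the same steps had 2.90%, 6.80%, 27.8%, 0 and 13.4%, and in arrested WT cells 2.80%, 2.66%, 8.10%, 0 and 7.10%. By the 20 point rule 1 of the 80 steps on both sides was higher in proliferating SS cells, fewer than the 5.60% of autosomal steps that passed it. The stretch was chosen after its values were seen, and the difference was not tested.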
